A study of Homo sapiens with 18 samples.

Results

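Canagliflozin was added to 5 Gy of radiation in 22RV1 cells, and the effect of the drug in irradiated cells was read from 6 of the 18 RNA sequencing libraries of the study. The 6 libraries are all those of 2 groups: CANA + RT (10 µM canagliflozin and 5 Gy, replicates A, B and C) and RT (5 Gy without the drug, replicates A, B and C), each collected at 24 h. 22RV1 is an established human cell line of castration-resistant prostate cancer. The other libraries of this line, used below for comparison, are CANA (10 µM canagliflozin without radiation, 3 libraries) and control (the DMSO vehicle, 3 libraries), and the rest of the series is PC3 cells with and without the drug. The libraries of a group are described as different replicates, and independent experiments are stated for the study in general. How the cultures behind these libraries were kept apart is not given, so the p-values below measure the spread between the libraries, part of which may be technical. The line is a single cell population in culture, with no stroma or vessels.

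Canagliflozin is an oral inhibitor of the glucose transporter SGLT2 that is used in type 2 diabetes, and it also inhibits complex I of the mitochondrial respiratory chain. Ionizing radiation breaks DNA, and cells answer through the kinases ATM and ATR and through p53, whose target CDKN1A (p21) inhibits cyclin-dependent kinases. With those kinases inhibited, the RB protein family holds back the E2F transcription factors, which drive the genes of DNA replication. A separate pathway, the integrated stress response, senses a shortage of amino acids, mitochondrial faults or misfolded protein through kinases that phosphorylate eIF2α. Its transcription factor ATF4 turns on genes for amino acid synthesis, amino acid uptake and the loading of transfer RNAs.

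The values are rlog values, a log2 scale of read counts on which differences are drawn towards each gene's mean, so that the fold changes given here understate those of the counts. Of the deposited genes, 14563 with a symbol had a mean rlog of at least 3, and each was compared between the 3 CANA + RT and the 3 RT libraries with limma, with a Benjamini-Hochberg adjusted p under 0.05 as the threshold for a call. All 14 markers of 22RV1 identity were present, with the luminal keratin KRT8 at a mean rlog of 14.19. The median over these markers was 11.98 to 12.04 in the CANA + RT libraries and 12.01 to 12.03 in the RT libraries, and TMPRSS2 was the only one called, with a log2 difference of 0.17. Of 12 PC3 markers 8 reached a mean rlog of 3, among them CD44 with 2200 and ITGA3 with 939.2 normalized reads. LCN2, IL6, CXCL8 and PLAU had at most 1.69 normalized reads. Of 10 fibroblast and stromal markers 6 reached a mean rlog of 3. COL1A1, ACTA2 and LUM had 313.6, 270.9 and 157.9 normalized reads, while FAP and THY1 were near 0 reads. The median over the PC3 markers was 6.01 to 6.07 in CANA + RT and 6.04 to 6.17 in RT, and CAV1, the caveolin of membrane pits, was lower by the test with a log2 difference of -0.27. The sequencing depth of each library is unknown, since no raw counts of this line were used.

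Adding canagliflozin to radiation changed many genes by small amounts. In CANA + RT 670 genes were higher and 523 lower than in RT, which is 4.60% and 3.59% of the genes tested. The 3 CANA + RT libraries all lay above the 3 RT libraries in 641 of the 670 and all below them in 495 of the 523. Over all tested genes that arrangement occurred in 12.1% above and 12.6% below. The median absolute log2 difference of the called genes was 0.12, against a median standard error (SE) of 0.037 over all genes. The first principal component of the 6 libraries took 38.3% of the variance and separated the groups, with scores of -4.40, -2.53 and -4.46 in CANA + RT and 3.65, 4.36 and 3.38 in RT. The counts fell to 355 higher and 233 lower without RT replicate B, 418 and 266 without CANA + RT replicate A, and 404 and 285 without CANA + RT replicate C.

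The 12 largest changes per direction were taken among called genes with at least 100 normalized reads whose groups did not overlap. Their separation by library was thus set by the choice of genes. The largest increase was that of GDF15 (chr19:18374731-18389176, GRCh38, + strand), a secreted stress cytokine of the TGF-β superfamily that acts on appetite and is a target of both p53 and ATF4. Its rlog was 12.97, 12.97 and 12.99 in CANA + RT libraries A, B and C, against 12.59, 12.58 and 12.64 in RT libraries A, B and C. All 3 CANA + RT libraries lay above all 3 RT libraries, by 1.30-fold or 0.38 ± 0.02 on the log2 scale (SE, n = 3 libraries a group, limma adjusted p = 2.53e-14). DDIT4 (chr10:72273919-72276036, + strand), an inhibitor of the growth kinase mTORC1, averaged 11.84 ± 0.03 in CANA + RT and 11.51 ± 0.08 in RT (SD, n = 3 each), with the CANA + RT libraries all above the RT libraries (1.25-fold, limma adjusted p = 1.84e-09). NUPR1, a small chromatin protein induced by stress, had 11.54, 11.46 and 11.51 in CANA + RT and 11.21, 11.23 and 11.25 in RT (1.21-fold, limma adjusted p = 2.42e-09). These genes are known ATF4 targets.

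Next in size were genes of different roles. CYP1A1, a cytochrome P450 of the aryl hydrocarbon receptor pathway, had 9.95, 10.01 and 10.01 in CANA + RT and 9.64, 9.69 and 9.78 in RT. SPOCK2, a proteoglycan of the extracellular matrix, was at 10.37, 10.42 and 10.45 in CANA + RT and at 10.10, 10.12 and 10.17 in RT, and the immediate early gene FOS at 8.58, 8.75 and 8.74 in CANA + RT and at 8.28, 8.40 and 8.55 in RT. Each of these 3 genes rose by 0.28 on the log2 scale. The lncRNA COLCA1, the transcription factor KLF15, the mitochondrial enzyme PCK2, which makes phosphoenolpyruvate, the ribosomal S6 kinase RPS6KA2 and the asparagine synthetase ASNS each rose by 0.26. CDKN1A (chr6:36676460-36687337, + strand) rose by 0.25, with 14.02, 14.08 and 14.12 in CANA + RT and 13.78, 13.81 and 13.88 in RT. Of these only FOS lost its call under any alternative run. It did so with no filter on low values and with limma without its trend of spread on level.

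The largest decrease was that of TXNIP, and the 12 largest also held its relative ARRDC4, the KLF factors KLF10 and KLF11, EPHA7 and genes of DNA replication. TXNIP (chr1:145992435-145996579, - strand), which binds thioredoxin and takes the glucose transporter GLUT1 off the cell surface, had 12.88, 12.93 and 13.11 in CANA + RT, against 13.24, 13.30 and 13.54 in RT. This is 0.763 times the RT level, or -0.39 ± 0.04 on the log2 scale (SE, n = 3 libraries a group, limma adjusted p = 2.87e-07). Its close relative ARRDC4 (chr15:97960703-97973833, + strand) had 9.80, 9.83 and 9.93 in CANA + RT and 10.05, 10.13 and 10.42 in RT, a log2 difference of -0.35. Both genes are targets of MondoA, a transcription factor that senses glucose phosphates. In each, replicate C was the highest library of its group. The calls of TXNIP and ARRDC4 were lost with no filter on low values and with limma's robust option, that of ARRDC4 also without the trend of spread on level.

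KLF10, a zinc finger repressor induced by TGF-β, had 9.97, 10.03 and 10.08 in CANA + RT and 10.29, 10.36 and 10.49 in RT, a log2 difference of -0.36. The related KLF11 had 8.78, 8.75 and 8.77 in CANA + RT and 9.01, 9.00 and 9.01 in RT. The ephrin receptor EPHA7 (chr6:93240020-93419687, - strand) had 10.16, 10.18 and 10.17 in CANA + RT and 10.50, 10.56 and 10.42 in RT. These 3 genes lay below every RT library, as the choice of genes required. UHRF1, which brings the maintenance DNA methyltransferase to newly copied DNA, fell by 0.32 on the log2 scale, CLSPN (claspin, a mediator of the ATR checkpoint) by 0.28, RRM2 (the small subunit of ribonucleotide reductase) by 0.25 and EXO1 (a nuclease of DNA end resection) by 0.25. The poly(A)-binding protein relative PABPC4L fell by 0.27, the antiviral enzyme OAS3 by 0.26 and the synaptic organizer CBLN2 by 0.24.

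**Figure D1:**
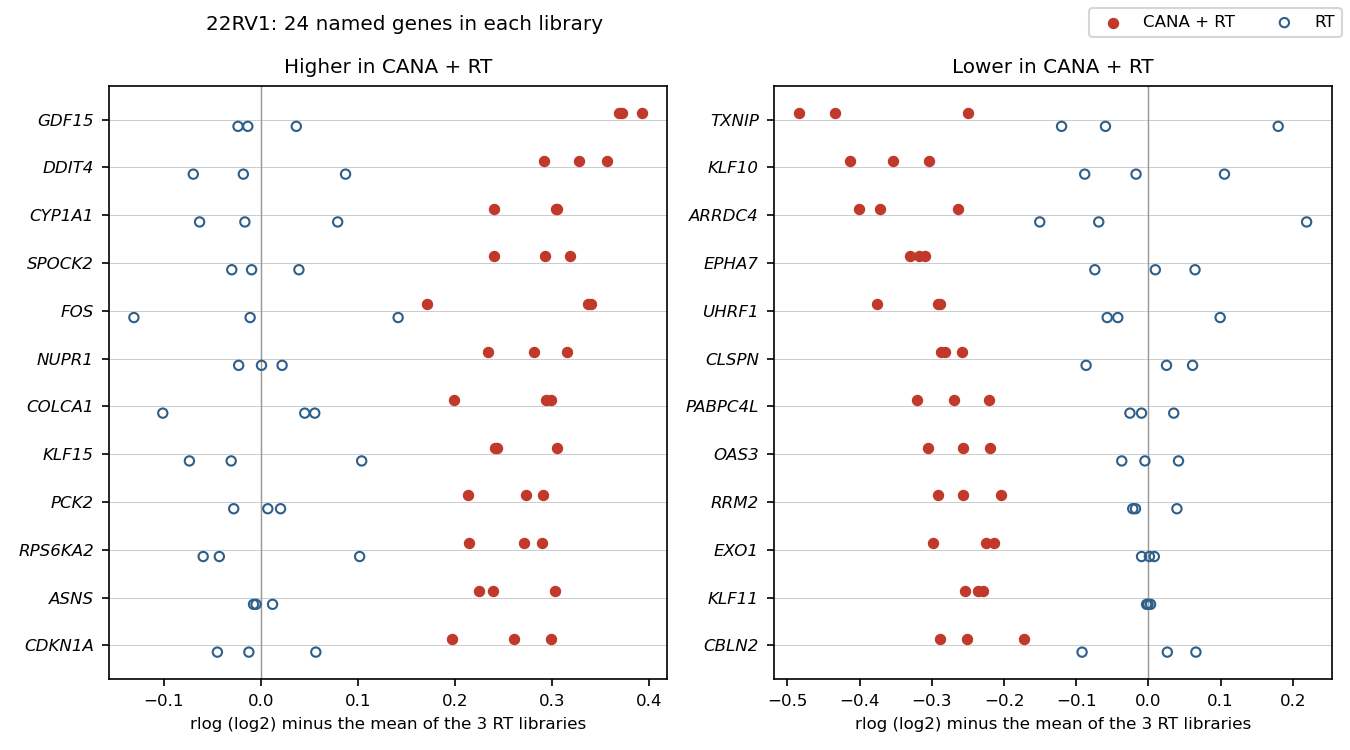
Points are single libraries of the 12 genes with the largest increase (left) and the 12 with the largest decrease (right) in CANA + RT, as rlog minus the mean of the 3 RT libraries on the x axis; filled red is CANA + RT and open blue is RT. Only called genes with the 3 red points on one side of the 3 blue points were eligible, so that separation was set by the choice. The average differences run from GDF15 at 0.38 to TXNIP at -0.39.

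Many genes of the integrated stress response rose together. Of 28 tested factors and targets 14 were higher and 0 lower in CANA + RT, with a median log2 difference of 0.10 over the list, against -0.0023 over all tested genes. The counts of this and later lists stand beside 4.60% higher and 3.59% lower among all tested genes. ATF4 itself (chr22:39519695-39522683, + strand) had 12.36, 12.30 and 12.38 in CANA + RT and 12.17, 12.14 and 12.12 in RT, an increase of 0.20 ± 0.02 on the log2 scale (SE, n = 3 libraries a group, limma adjusted p = 2.84e-07). ATF3, a repressor downstream of it, had 10.01, 10.04 and 10.05 in CANA + RT and 9.80, 9.82 and 9.99 in RT. RT library C lay closest to the CANA + RT libraries in ATF3, whose call was lost with no filter on low values, without the trend and in the fit of all 12 libraries of the line. The glutathione-degrading enzyme CHAC1 rose by 0.23, the translation repressor EIF4EBP1 by 0.22, the transcription factor DDIT3 (CHOP) by 0.22, STC2 by 0.18 and the pseudokinase TRIB3 by 0.08. GDF15, DDIT4 and NUPR1 belong to this list as well, and the kinase EIF2AK2 (PKR) was the lowest member at -0.09, without a call. The count was 7 without limma's trend and 9 in the 12-library fit. The list was written with earlier results of these data known, so its direction is no independent evidence.

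Of 24 enzymes of serine, asparagine and one-carbon metabolism 13 were higher and 0 lower in CANA + RT, with a median of 0.09. ASNS, which makes asparagine from aspartate, had 12.36, 12.37 and 12.44 in CANA + RT and 12.13, 12.13 and 12.15 in RT (1.19-fold, limma adjusted p = 2.42e-09). PHGDH, the first enzyme of serine synthesis, had 12.18, 12.20 and 12.25 in CANA + RT and 12.01, 11.96 and 12.00 in RT, and PSAT1, the next enzyme of that route, had 12.08, 12.08 and 12.11 in CANA + RT and 11.97, 11.95 and 11.98 in RT. In all 3 genes the groups were apart. The mitochondrial folate enzymes ALDH1L2, MTHFD1L, SHMT2 and MTHFD2 rose by 0.15, 0.11, 0.10 and 0.10, the urea cycle enzymes ASS1 and ASL by 0.22 and 0.17 and the branched-chain transaminase BCAT1 by 0.19. SHMT1, the cytosolic serine hydroxymethyltransferase, was the lowest member at -0.07, without a call. The higher count was 4 without limma's trend and 5 in the 12-library fit.

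Of 19 cytosolic aminoacyl-tRNA synthetases, the enzymes that load amino acids onto transfer RNAs, 10 were higher and 0 lower, with a median of 0.09. SARS1, the seryl-tRNA synthetase, had 12.46, 12.46 and 12.49 in CANA + RT and 12.28, 12.21 and 12.27 in RT, an increase of 0.22. MARS1, YARS1 and TARS1 rose by 0.13, 0.12 and 0.12, and AARS1, GARS1, WARS1, IARS1, NARS1 and EPRS1 by 0.08 to 0.11. Of 16 amino acid transporters 5 were higher and 0 lower, and the median was 0.03. The glutamine carrier SLC1A5 had 12.48, 12.53 and 12.52 in CANA + RT and 12.34, 12.33 and 12.29 in RT, while SLC43A1, SLC1A4, SLC7A11 (the cystine carrier) and SLC3A2 (its heavy chain) rose by 0.17, 0.15, 0.13 and 0.08. The synthetase count was 1 without limma's trend and 4 in the 12-library fit, and the transporter count 2 and 1. The transporter count also fell to 2 without CANA + RT replicate A or B and to 3 without CANA + RT replicate C or RT replicate B. SLC3A2 reversed to -0.02 with quantile normalization, without a call.

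The promoters of some of these genes hold the letters that ATF4 and its C/EBP partners bind. RefSeq promoters (GRCh38.p14, 250 bases before to 50 after the start) were searched on both strands for TGATGNAA, the core of the C/EBP-ATF response element. The letters occurred in 12 of 33 promoters (36.4%) of called members of these amino acid and stress lists and in 5 of 38 (13.2%) of members not called, against 3.67% of all 27305 promoters and 1.69% of those of tested genes. The counts are a description of these windows. The promoter of ASNS (chr7:97872359-97872658, - strand), a gene in which this element is well studied, and shorter stretches of ATF3 (chr1:212565157-212565306, + strand) and MARS1 (chr12:57487968-57488117, + strand) are printed with the match in capitals. In MARS1 the match lies on the other strand and reads as its reverse complement.
ASNS: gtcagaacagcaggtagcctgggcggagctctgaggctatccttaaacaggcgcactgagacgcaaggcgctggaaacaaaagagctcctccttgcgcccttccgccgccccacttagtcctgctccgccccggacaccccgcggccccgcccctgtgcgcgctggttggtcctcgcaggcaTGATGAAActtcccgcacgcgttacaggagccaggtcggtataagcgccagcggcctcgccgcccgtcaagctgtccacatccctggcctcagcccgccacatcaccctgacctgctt
ATF3: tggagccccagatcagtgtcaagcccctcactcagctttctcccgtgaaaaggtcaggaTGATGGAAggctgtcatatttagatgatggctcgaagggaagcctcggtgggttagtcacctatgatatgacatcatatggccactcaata
MARS1: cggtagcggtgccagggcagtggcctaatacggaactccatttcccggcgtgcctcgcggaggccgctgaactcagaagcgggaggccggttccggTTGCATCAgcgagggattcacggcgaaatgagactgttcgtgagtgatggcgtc

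Some targets of p53 rose further above their level after radiation. Of 35 tested p53 targets 9 were higher and 0 lower in CANA + RT than in RT, and the median log2 difference was 0.07. BBC3, the cell death gene PUMA, had 11.53, 11.48 and 11.59 in CANA + RT and 11.35, 11.33 and 11.42 in RT, and FDXR, a mitochondrial reductase, had 11.03, 11.06 and 11.10 in CANA + RT and 10.90, 10.90 and 10.95 in RT. GADD45A, PHLDA3, RPS27L, BTG2 and CCNG1 rose by 0.16, 0.14, 0.13, 0.10 and 0.08. DDB2, a damage sensor of nucleotide excision repair, was the lowest at -0.06, without a call. GDF15 and BBC3 stand in this list and in the stress response list. The count was 14 without RT replicate C, 2 without limma's trend and 5 in the 12-library fit.

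Many genes of the replicative helicase fell. Of 24 genes of the MCM complex and origin licensing 13 were lower and 0 higher in CANA + RT, with a median of -0.11. MCM4 had 12.09, 12.06 and 12.07 in CANA + RT and 12.35, 12.33 and 12.22 in RT, a decrease of 0.23 ± 0.03 on the log2 scale (SE, n = 3 libraries a group, limma adjusted p = 1.56e-07). MCM2 had 11.92, 11.91 and 11.86 in CANA + RT and 12.14, 12.10 and 12.03 in RT, and CDC45, which joins the helicase when an origin fires, had 9.80, 9.75 and 9.78 in CANA + RT and 9.96, 10.04 and 9.95 in RT. All 3 were below every RT library. ORC1, the origin recognition subunit, fell by 0.23, MCM5 by 0.20, MCM10 by 0.20, MCM3 and MCM6 by 0.15, CDC6 by 0.14 and MCM7 by 0.10. The highest member was DBF4, the activator of the CDC7 kinase, at 0.05 without a call. The lower count was 8 without limma's trend. A lower level in these bulk libraries cannot tell fewer cells in S phase from less RNA per cell.

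At the replication fork 13 of 36 genes were lower and 1 higher, with a median of -0.08. FEN1, which trims Okazaki fragments, had 10.89, 10.86 and 10.91 in CANA + RT and 11.11, 11.04 and 11.00 in RT. DNMT1, the maintenance methyltransferase, fell by 0.13, the chromatin assembly subunits CHAF1B and CHAF1A by 0.17 and 0.13, and the sliding clamp PCNA by 0.08, while POLD4, a small polymerase δ subunit, rose by 0.15. The lower count was 8 without RT replicate B, 3 without limma's trend and 7 in the 12-library fit, and the higher count was 0 without RT replicate B. Of 25 genes of nucleotide supply 5 were lower and 1 higher, with 3 lower without RT replicate B or in the 12-library fit, 2 lower without the trend and 2 higher without RT replicate A. RRM2 had 11.26, 11.21 and 11.17 in CANA + RT and 11.50, 11.44 and 11.45 in RT, and TK1, the thymidine kinase of S phase, had 10.78, 10.68 and 10.71 in CANA + RT and 11.00, 10.93 and 10.89 in RT. RRM1 fell by 0.10 and DCK by 0.09, while IMPDH2, an enzyme of guanine nucleotide synthesis, rose by 0.11.

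Of 18 E2F and RB family genes 7 were lower and 0 higher, with a median of -0.08. E2F1 had 10.35, 10.41 and 10.34 in CANA + RT and 10.64, 10.54 and 10.46 in RT, a decrease of 0.18. E2F2 fell by 0.14, the repressors E2F7 and E2F8 by 0.22 each, MYBL2 by 0.17, the E2F partner TFDP1 by 0.10 and FOXM1 by 0.09. Of 26 cyclins, CDKs and CDK inhibitors 5 were lower (CCNE2, CDC25A, CDK2, PKMYT1 and WEE1) and 1, CDKN1A, was higher. CCNE2, cyclin E2, had 8.94, 8.90 and 8.87 in CANA + RT and 9.20, 9.17 and 9.00 in RT. The lower count of this list was 3 without RT replicate B and 0 without limma's trend, and its higher count was 2 without CANA + RT replicate B and 4 without RT replicate C. For the E2F and RB family the lower count was 3 without the trend.

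Promoters of the genes that fell were searched in the same way for TTTNNCGC, the core letters of an E2F site. They occurred in 22 of 41 promoters (53.7%) of called members of the replication, E2F and repair lists and in 16 of 76 (21.1%) of members not called, against 6.90% of all promoters and 10.3% of those of tested genes. Among all genes lower in CANA + RT the share was 18.3%, and among those higher it was 9.54%. The matches are a description of the windows and do not show binding. E2F1 (chr20:33686336-33686635, - strand), MCM6 (chr2:135876394-135876693, - strand), UHRF1 (chr19:4909351-4909550, + strand), CLSPN (chr1:35769929-35770078, - strand) and MCM2 (chr3:127598311-127598460, + strand) are printed because each fell and holds the letters. Capitals mark the matches on either strand, and in E2F1, MCM6 and MCM2 neighbouring matches on opposite strands overlap.
E2F1: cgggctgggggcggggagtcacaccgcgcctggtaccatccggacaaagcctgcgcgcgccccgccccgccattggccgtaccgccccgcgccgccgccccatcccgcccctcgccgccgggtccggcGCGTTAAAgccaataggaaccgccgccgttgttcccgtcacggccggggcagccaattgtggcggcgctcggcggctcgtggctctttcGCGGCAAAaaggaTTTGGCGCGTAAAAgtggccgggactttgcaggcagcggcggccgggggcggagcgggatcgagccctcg
MCM6: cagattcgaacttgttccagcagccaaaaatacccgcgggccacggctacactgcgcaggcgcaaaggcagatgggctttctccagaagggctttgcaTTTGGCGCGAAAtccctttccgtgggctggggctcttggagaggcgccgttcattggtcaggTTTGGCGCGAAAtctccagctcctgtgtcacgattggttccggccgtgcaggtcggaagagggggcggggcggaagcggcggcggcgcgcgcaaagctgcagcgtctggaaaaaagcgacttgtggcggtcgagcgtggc
UHRF1: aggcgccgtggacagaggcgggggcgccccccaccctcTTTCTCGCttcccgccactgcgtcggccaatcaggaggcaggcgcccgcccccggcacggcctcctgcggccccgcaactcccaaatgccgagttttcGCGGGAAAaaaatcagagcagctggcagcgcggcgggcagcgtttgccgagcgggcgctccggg
CLSPN: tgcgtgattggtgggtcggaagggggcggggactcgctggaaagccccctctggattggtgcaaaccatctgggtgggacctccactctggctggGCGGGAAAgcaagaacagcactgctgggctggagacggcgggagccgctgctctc
MCM2: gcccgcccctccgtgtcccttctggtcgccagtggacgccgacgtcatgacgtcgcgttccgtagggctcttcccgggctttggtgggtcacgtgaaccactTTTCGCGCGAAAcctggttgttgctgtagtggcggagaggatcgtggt

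Of 60 tested genes of mitosis 13 were lower and 0 higher, and the median was -0.03, running from -0.05 without RT replicate A to -0.01 without RT replicate C. Without RT replicate C 2 genes of the list were higher. MKI67, the Ki-67 antigen of dividing cells, had 13.04, 13.05 and 12.99 in CANA + RT and 13.13, 13.16 and 13.25 in RT. The spindle motor KIF11 fell by 0.13, the kinetochore scaffold KNL1 by 0.13, the centriole kinase PLK4 by 0.12, the condensin subunit NCAPG2 by 0.12 and anillin (ANLN) by 0.11. The letters TTTGAA, the cell cycle homology region of late cell cycle genes, occurred in 38 of 51 promoters (74.5%) of this list on either strand. The share was 15.4% of all promoters and 9.64% of those of tested genes. The count is over the whole list, in which 47 of the 60 tested genes were not called, and was not split by call. No gene of the list was lower without limma's trend, and 5 were in the 12-library fit. UBE2C, the ubiquitin carrier of the anaphase complex, was the highest member at 0.08, without a call.

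Of 35 genes of homologous recombination and Fanconi repair 10 were lower and 0 higher in CANA + RT, with a median of -0.07. EXO1 had 9.46, 9.45 and 9.38 in CANA + RT and 9.68, 9.67 and 9.69 in RT, and BRCA1 had 11.06, 11.08 and 10.98 in CANA + RT and 11.22, 11.21 and 11.17 in RT. BRIP1 and BARD1, partners of BRCA1, fell by 0.22 and 0.21, BRCA2 by 0.20, RAD51AP1 by 0.14, FANCA by 0.14 and FANCM by 0.13. Of 24 damage kinases and end joining genes 3 were lower (PARP2, PRKDC and RAD1) and 0 higher, against 3.59% lower over all tested genes. The lower count was 1 without CANA + RT replicate B or RT replicate B. A count this small is not read as a result about the list. Without limma's trend 2 repair genes and 0 damage kinases and end joining genes were lower. Of 21 replication-dependent histone genes 0 were called by limma, with 1 at an unadjusted p under 0.05 and a median of 0.002, although these genes are also used in S phase. Their transcripts mostly lack a poly(A) tail.

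Cytosolic ribosomal protein genes were the list with the highest share of calls. Of 77 tested 73 were higher and 0 lower in CANA + RT, with a median of 0.14. RPS28 had 12.50, 12.48 and 12.58 in CANA + RT and 12.35, 12.29 and 12.36 in RT, RPS3A had 13.05, 12.97 and 13.03 in CANA + RT and 12.82, 12.82 and 12.85 in RT, and RPL36 had 13.25, 13.22 and 13.29 in CANA + RT and 13.07, 13.07 and 13.09 in RT. None of the 3 overlapped between groups. RPL36A was the lowest member at -0.07, without a call. The count of higher genes was 24 without limma's trend and 34 in the 12-library fit. Genes of this family have many near-identical pseudogene copies, and how reads were shared among them makes each value uncertain.

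Many translation factors were higher as well. Of 31 tested 20 were higher and 1, EIF4G1, was lower, with a median of 0.09. The RNA helicase EIF4A2 had 12.12, 12.17 and 12.24 in CANA + RT and 11.86, 11.92 and 12.05 in RT, and TPT1 had 13.81, 13.79 and 13.87 in CANA + RT and 13.67, 13.70 and 13.70 in RT. EIF1, NACA and the elongation factors EEF1A1 and EEF2 rose by 0.14, 0.12, 0.13 and 0.08. The count of higher factors was 11 without RT replicate B, 0 without limma's trend and 4 in the 12-library fit, and EIF4G1 was not called without CANA + RT replicate C or RT replicate A. Many of these messages, like those of ribosomal proteins, begin with a terminal oligopyrimidine tract through which mTORC1 sets their translation. Of 18 nuclear lncRNAs and hosts of small nucleolar RNAs 11 were higher and 1, TUG1, was lower, with a median of 0.14. SNHG8 had 10.93, 10.88 and 10.94 in CANA + RT and 10.69, 10.65 and 10.68 in RT, and GAS5 had 12.47, 12.40 and 12.49 in CANA + RT and 12.23, 12.25 and 12.27 in RT. SNHG5, SNHG7, ZFAS1, SNHG29, SNHG6 and SNHG1 rose by 0.13 to 0.21, and the nuclear RNAs MALAT1 and NEAT1 by 0.28 and 0.12. MALAT1 did not meet all conditions of the 12 largest increases (a call, groups apart and at least 100 normalized reads). Without limma's trend 5 of the list were higher, and TUG1 was not called without CANA + RT replicate A or C or RT replicate B or C.

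**Figure D2:**
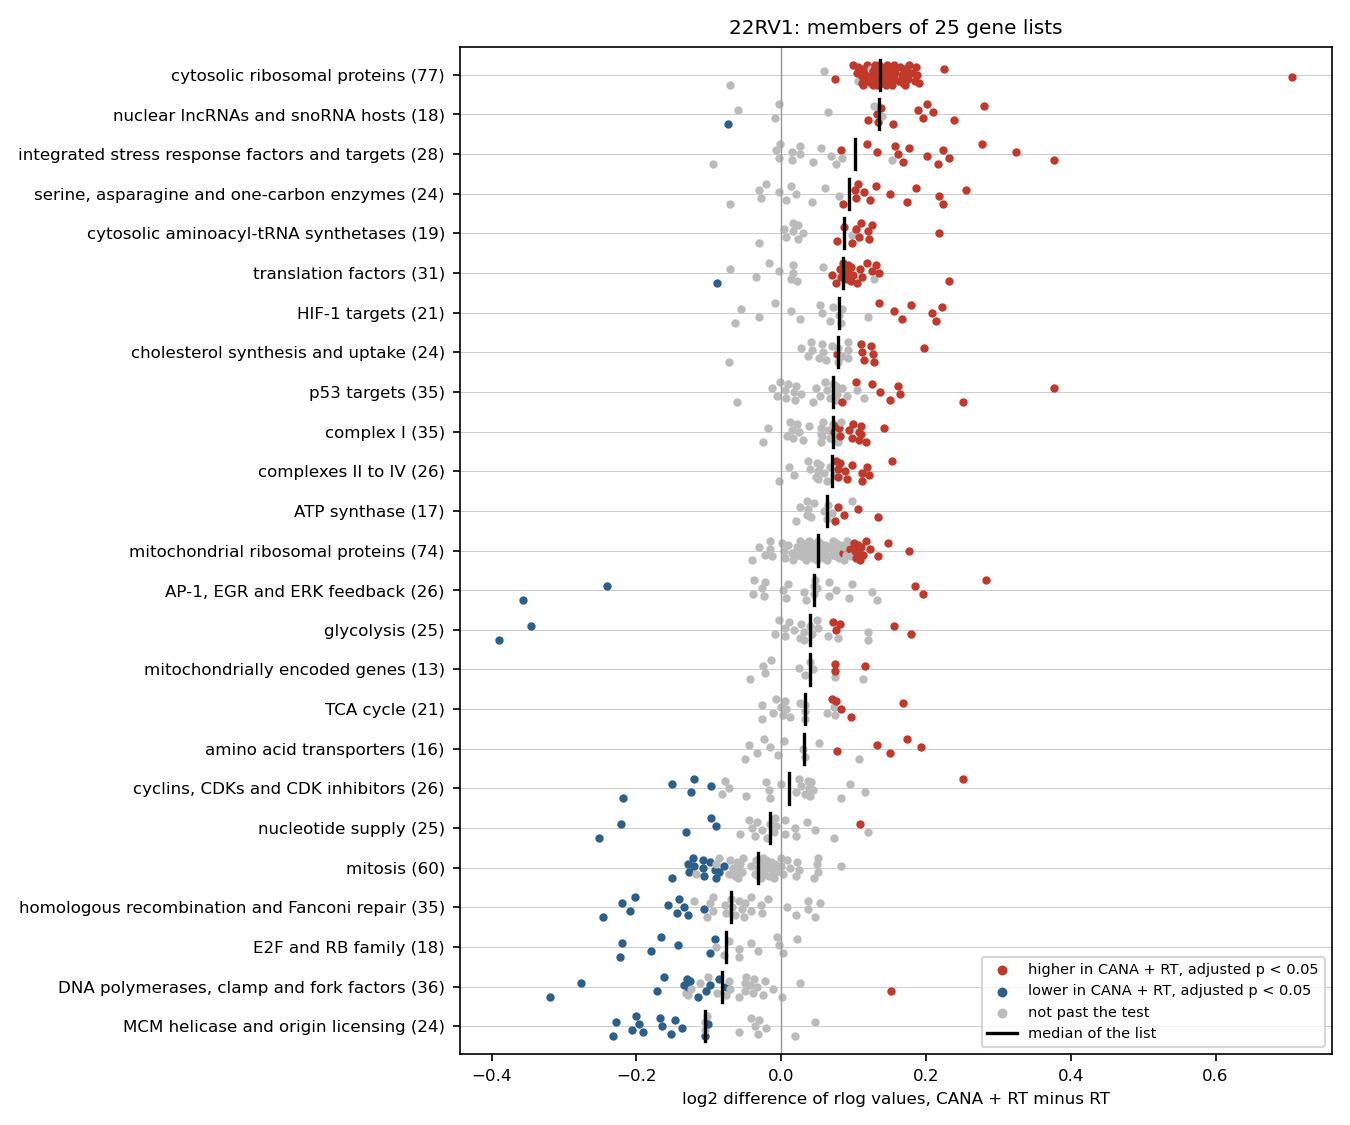
Each point is 1 tested gene of 25 lists (number of tested genes in parentheses), placed by its log2 difference, CANA + RT minus RT, on the x axis; red is higher and blue lower by the test, grey is not past it, and black bars are list medians. Ribosomal protein genes (73 of 77 red) and snoRNA hosts lie to the right, and the MCM complex and origin licensing (13 of 24 blue) lies farthest to the left.

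A part of the nuclear genes of the respiratory chain, where complex I is a known target of the drug, was higher by small amounts. For complex I 13 of 35 genes were higher and 0 lower, with a median of 0.07. For complexes II to IV 12 of 26 were higher and 0 lower, with a median of 0.07, and for ATP synthase 5 of 17 were higher and 0 lower. NDUFA13, an accessory subunit of complex I, had 11.81, 11.74 and 11.84 in CANA + RT and 11.70, 11.63 and 11.64 in RT, and COX5B, a subunit of complex IV, had 12.50, 12.44 and 12.54 in CANA + RT and 12.34, 12.34 and 12.34 in RT. Most of these messages are short, with a median transcript of 678 bases for complex I. With each library corrected by a smooth curve on length and GC content of the transcripts, an alternative added for the lists after the data were seen, the higher counts were 3 for complex I, 6 for complexes II to IV and 3 for ATP synthase. Without RT replicate B they were 4, 6 and 2, without CANA + RT replicate C 4, 6 and 2, and without CANA + RT replicate A 6 for complex I and 2 for ATP synthase, which also had 2 without RT replicate C. Without limma's trend all 3 counts were 0, and in the 12-library fit they were 1, 1 and 0.

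Of 74 mitochondrial ribosomal protein genes 15 were higher and 0 lower, with a median of 0.05, and MRPL9 led with 11.01, 10.99 and 11.05 in CANA + RT against 10.86, 10.85 and 10.82 in RT. The count was 5 with the curve on length and GC content, 5 without RT replicate B, 8 without CANA + RT replicate A or C, 1 without limma's trend and 4 in the 12-library fit. Of the 13 protein genes of mitochondrial DNA 3 were higher, ATP8, ND3 and COX1, and 0 lower. COX1 had 17.35, 17.32 and 17.30 in CANA + RT and 17.26, 17.24 and 17.25 in RT, with a limma adjusted p of 0.0495. None of these 3 calls remained with the curve or without RT replicate B, and ATP8 alone was called without CANA + RT replicate A. Of 21 genes of the TCA cycle 5 were higher, among them PC, SUCLG1, IDH1 and PDHA1, and 0 lower, and 1 was higher without CANA + RT replicate C or RT replicate B. Without the trend 0 genes of mitochondrial DNA and 0 of the TCA cycle were higher, and in the 12-library fit 0 and 1 were.

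In the glycolysis list 5 of 25 genes were higher and 2 lower. The 2 lower genes were TXNIP and its relative ARRDC4, which are not enzymes of glycolysis. The glucose transporter SLC2A1 (GLUT1) had 10.75, 10.75 and 10.65 in CANA + RT and 10.60, 10.51 and 10.49 in RT, and hexokinase 2 (HK2) had 12.20, 12.21 and 12.11 in CANA + RT and 11.97, 12.02 and 12.05 in RT. The other calls were GAPDH, PFKM and LDHB, at 0.07 to 0.08. The higher count ranged from 2 without RT replicate A or B, and 3 without CANA + RT replicate A, to 10 without RT replicate C, and was 0 without limma's trend and 2 in the 12-library fit. Of 21 HIF-1 targets 7 were higher and 0 lower, with a median of 0.08. The angiogenic factor VEGFA had 11.67, 11.61 and 11.59 in CANA + RT and 11.28, 11.42 and 11.54 in RT, apart by a narrow gap, while in NDRG1 (10.70, 10.71 and 10.56 in CANA + RT, 10.39, 10.47 and 10.60 in RT) the groups overlapped. ANKRD37, ADM and P4HA1 rose by 0.22, 0.21 and 0.14. HIF1A itself was the lowest at -0.06, without a call. The HIF-1 count was 4 without CANA + RT replicate B or RT replicate A and 11 without CANA + RT replicate C, and it was 1 without limma's trend.

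Of 24 genes of cholesterol synthesis and uptake 8 were higher and 0 lower in CANA + RT, with a median of 0.08. MSMO1, a sterol demethylating enzyme, had 10.79, 10.74 and 10.80 in CANA + RT and 10.55, 10.57 and 10.62 in RT, and HMGCS1, an early enzyme of the pathway, had 11.51, 11.50 and 11.50 in CANA + RT and 11.40, 11.40 and 11.37 in RT. DHCR7 and FDFT1 rose by 0.13 and 0.12. The count was 5 without CANA + RT replicate A, 1 without limma's trend and 3 in the 12-library fit. Of 22 NRF2 targets and ferritin genes 5 were higher and 0 lower, among them the quinone reductase NQO1 and the ferritin light chain FTL, at 0.21 each, and the ferritin heavy chain FTH1 at 0.15, and 3 were higher without the trend or in the 12-library fit.

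Among immediate early and ERK feedback genes 3 of 26 were higher (FOS and the phosphatases DUSP6 and DUSP4, at 0.28, 0.20 and 0.19) and 2 lower (KLF10 and KLF11). Over all tested genes 4.60% were higher and 3.59% lower, and the small counts of this paragraph are not read as results about the lists. The higher count was 8 without RT replicate C and 0 without limma's trend. Of 17 ETS factors, a family of transcription factors that includes ERK targets, ELF3 and ETV4 were higher and 0 lower. ELF3 had 11.58, 11.60 and 11.57 in CANA + RT and 11.34, 11.35 and 11.41 in RT, and ETV4 had 9.35, 9.31 and 9.39 in CANA + RT and 9.13, 9.15 and 9.16 in RT. ELK1 had 10.41, 10.39 and 10.44 in CANA + RT and 10.40, 10.44 and 10.42 in RT, a log2 difference of -0.01 ± 0.03 (SE, n = 3 libraries a group) that did not pass (limma adjusted p = 0.882). The haematopoietic and prostate factor GATA2 rose by 0.10.

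Other genes that fell belong to cell shape, cell contact and chromatin. ROCK2, a kinase that drives contraction, had 10.64, 10.62 and 10.56 in CANA + RT and 10.75, 10.73 and 10.81 in RT. The kinase TAOK3 fell by 0.10, and its call was lost without CANA + RT replicate B or RT replicate B. The gap junction gene GJA1 had 9.72, 9.73 and 9.78 in CANA + RT and 9.93, 9.85 and 9.89 in RT. The acetyltransferase EP300 had 11.57, 11.64 and 11.54 in CANA + RT and 11.72, 11.71 and 11.65 in RT, and its call was lost without CANA + RT replicate C. None of ROCK2, TAOK3, GJA1 and EP300 kept its call without limma's trend, and with no filter on low values only ROCK2 did. TAOK3 and EP300 were also not called in the 12-library fit, nor was EP300 with the curve on length and GC content.

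Other lists of pathways known in stressed cells are set against the 8.19% of all tested genes that were called. Of 29 chaperones and factors of the unfolded protein response 0 were called by limma, with a median of 0.01 and 7 at an unadjusted p under 0.05, and 1 was higher without RT replicate A. Of 14 tested NF-kB and cytokine genes 0 were called by limma, with 2 at an unadjusted p under 0.05, and 1 was lower without RT replicate C. Among 38 autophagy and lysosome genes 2 were higher and 0 lower, with 1 higher without CANA + RT replicate B or C or RT replicate B. Of 40 genes of the MAP kinase cascade 2 were higher and 0 lower, with 1 higher without CANA + RT replicate A or C or RT replicate B and 1 lower without RT replicate A.

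The same dose of canagliflozin in unirradiated cells gave no call by limma on these rlog values. Between 3 CANA and 3 control libraries limma called 0 genes higher and 0 lower of 14556 tested, with 174 and 125 at an unadjusted p under 0.05 and a median SE of 0.0413. Every other fit run called 0 genes, except that 1 gene was lower without control replicate C. The paper, which used DESeq2 on the counts, reported genes changed significantly in both directions by the drug alone in this line. The absence of calls here therefore does not show that the drug alone had no effect. The 670 genes higher in CANA + RT had a median log2 difference of 0.01 between CANA and control, with 394 of them above 0, and the 523 lower genes had a median of -0.0039, with 283 below 0. Over all tested genes the median was -1e-04, and their shares above and below 0 were not counted. A gene called with radiation and not without it is not thereby shown to differ between the conditions, so the difference of the effects was tested in a fit of all 12 libraries.

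That test called 15 genes, 0.103% of those tested, of which 8 had a higher and 7 a lower effect of canagliflozin in irradiated cells. GDF15 had 12.16, 12.31 and 12.26 in CANA and 12.20, 12.26 and 12.10 in control cells, a log2 difference of 0.06, against 0.38 in irradiated cells (difference of effects 0.32 ± 0.05 (SE, 12 libraries), limma adjusted p = 0.0215). For CDKN1A the effects were 0.25 with radiation and -0.0043 without it, for RRM2 -0.25 and -0.02, for EXO1 -0.25 and 0.01 and for KLF10 -0.36 and -0.0038. MCM4, the replication-linked ATPase ATAD2 and the cohesin acetyltransferase ESCO2 were more negative with radiation, as was OGFRL1, and COLCA1, DCXR, EVA1B, FAHD2A, PEX6 and the mRNA decay factor ZFP36 were more positive. FAHD2A was not called between CANA + RT and RT themselves (limma adjusted p = 0.0556). The number of genes fell to 0 without CANA + RT replicate C, without RT replicate B, with no filter and without the trend, and to 1 to 5 without CANA + RT replicate A or B, RT replicate A, control replicate A or CANA replicate B or C. It rose to 25 and 116 without control replicates B and C.

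**Figure D3:**
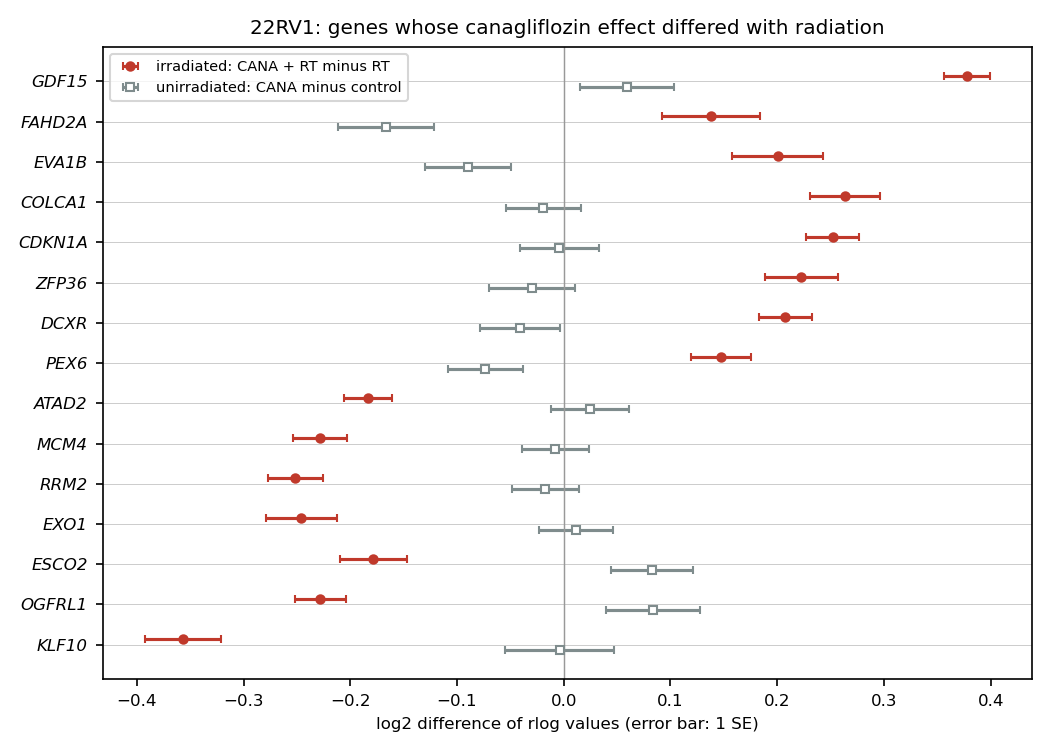
The 15 genes whose canagliflozin effect differed between irradiated and unirradiated 22RV1 cells, with the log2 difference and its SE on the x axis; red circles are CANA + RT minus RT and open grey squares are CANA minus control. The red circles run from KLF10 at -0.36 to GDF15 at 0.38, while the grey squares lie between -0.17 (FAHD2A) and 0.08.

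Set beside the effect of radiation alone, the drug moved some genes the same way and others the opposite way. The RT libraries enter both differences, RT minus control and CANA + RT minus RT, so an RT level that is off by chance pushes the 2 values in opposite directions. CDKN1A differed by 1.06 between RT and control and by a further 0.25 between CANA + RT and RT, and BBC3 by 1.35 and a further 0.16. RRM2 differed by -1.03 between RT and control and by a further -0.25 with the drug, CLSPN by -1.14 and -0.28, UHRF1 by -0.84 and -0.32 and MCM2 by -0.39 and -0.19. In these genes CANA + RT lay farther from control than RT did. TXNIP was the opposite, with 1.26 between RT and control and -0.39 between CANA + RT and RT, as were ARRDC4 (0.78 and -0.35), EPHA7 (0.93 and -0.32) and KLF10 (0.61 and -0.36). By list, the median between RT and control was 0.70 for p53 targets, -0.39 for the MCM complex and origin licensing, 0.08 for the integrated stress response and 0.14 for ribosomal proteins. Across all 12 libraries the first principal component took 83.4% of the variance and separated the 6 irradiated from the 6 unirradiated libraries.

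**Figure D4:**
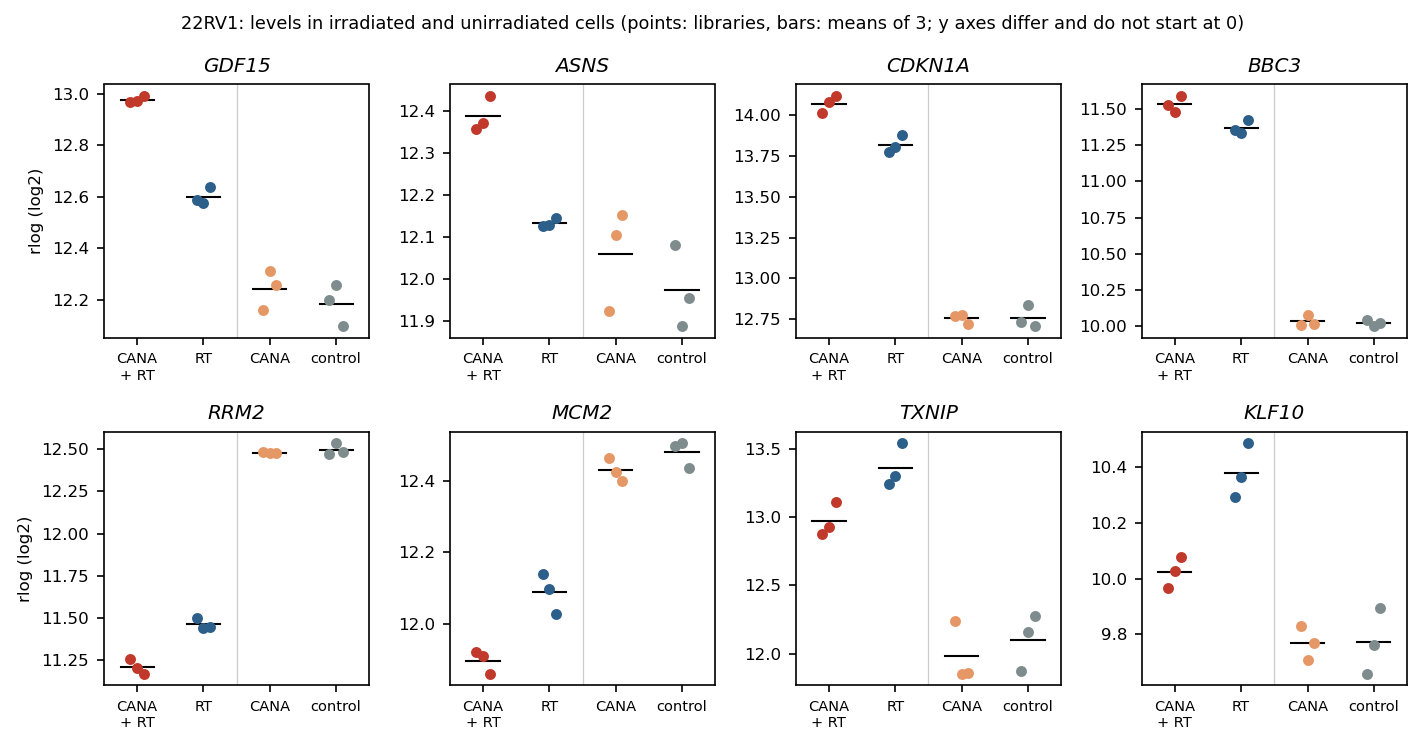
The rlog level (y axis, log2, not starting at 0) of 8 genes in each library of the CANA + RT, RT, CANA and control groups, with points for libraries and bars for means of 3. CDKN1A and BBC3 stand about 1 log2 unit or more above the unirradiated cells with CANA + RT highest, RRM2 and MCM2 are lowest in CANA + RT, and TXNIP and KLF10 are lower in CANA + RT than in RT but above control.

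The calls also followed transcript length. Canonical transcripts had a median of 1688 bases among the 670 higher genes, 5506 bases among the 523 lower genes and 3282 bases among genes not called, and the median GC content was 52.4%, 44.2% and 48.4%. The median of normalized reads was 2021, 1285 and 497.6. The shares over all tested genes thus include many genes at lower levels than those called. Of 1046 genes with transcripts under 1000 bases 17.3% were higher and 0.0956% lower, and of 2540 genes with 6000 bases or more 1.46% were higher and 8.98% lower. The median of the shortest class lay 0.0268 and 0.0402 above the mean of the 6 libraries in CANA + RT replicates A and C and 0.0051 above it in CANA + RT replicate B, while the RT replicates A, B and C stood at -0.0136, -0.0314 and -0.0241 relative to it. With the length and GC curve removed, 501 genes were higher and 279 lower, and 64.2% of the calls were then higher, against 56.2% in the comparison as reported. The lists for stress response, serine synthesis, tRNA synthetases, MCM genes and ribosomal proteins kept similar counts, of 13, 12, 10, 12 and 69 in their direction, while those for the respiratory chain fell as given above. Which part of the length trend comes from the libraries and which from the cells was not tested.

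**Figure D5:**
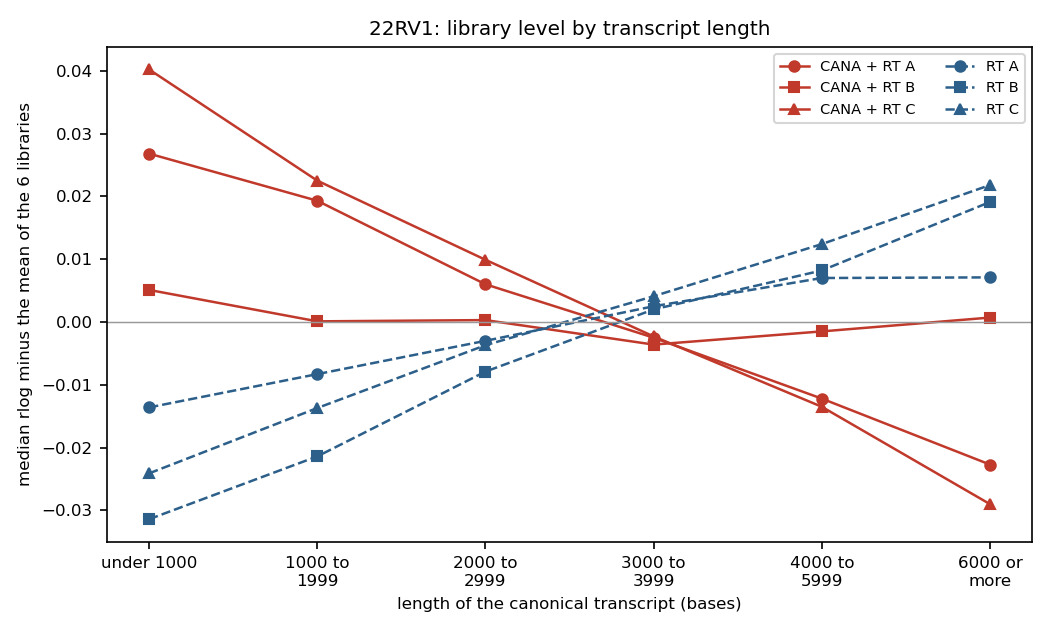
Median rlog of each library minus the mean of the 6 libraries (y axis, log2) in 6 classes of canonical transcript length (x axis, bases); red solid lines are CANA + RT and blue dashed lines RT, with a marker per replicate. CANA + RT replicates A and C run from above 0 at short to below 0 at long transcripts, CANA + RT replicate B stays near 0, and the 3 RT lines run the other way.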

How the data were processed

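RNA of 22RV1 cells was made into libraries with a kit that keeps strand and sequenced as single-end reads. Trimming was by Trimmomatic followed by Cutadapt and alignment by HISAT2 (hg38). The authors counted reads with featureCounts over reverse-strand exons and took the counts through DESeq2, all in Galaxy. Versions are not given in the sources used here. The deposited values are the authors' rlog values, the log2 scale that DESeq2 writes, and a mean of normalized reads over the 12 libraries of the line, a deposited signal that was used only to filter genes for naming. The deposited columns of fold changes, p-values and ranks hold the authors' own comparisons and were not used, and 54 columns of numbers that name no sample were left out.

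Of 21268 genes 301 without a symbol, with 0.0606% of the summed mean, and 6404 with a mean rlog below 3 were left out. The remaining genes were compared with limma 3.58.1 in R 4.3.3 with its trend of spread on level, 3 libraries against 3, and a call is a Benjamini-Hochberg adjusted p under 0.05. The libraries shared by the deposited tables differed by at most 5e-09, so the 12 libraries were joined to test the difference of the canagliflozin effects. Coordinates and transcript lengths are from GENCODE v44 on GRCh38.

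Genes are named by 3 rules. These take the 12 largest differences per direction among called genes with groups apart and at least 100 normalized reads, the genes that the paper names for irradiated cells, and from each of 26 lists the 4 members of smallest p. Some genes and 1 list that these rules name were left out of the text. Other list members, and those of further lists, were named after their values were seen. The genes and all 48 lists were chosen with earlier results of these data known. Replicate letters are shared by the groups, no source says what a letter stands for, and they were not used as a block.

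Alternatives were another filter on low values or none, limma without its trend, with its robust option or with array weights, all 12 libraries in one fit, a median shift, quantile normalization, a smooth curve on GC content and transcript length, the letter as a block, and each library left out.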

Additional observations from a re-analysis of the deposited data

Results flagged for a closer look

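The effect of canagliflozin differed between irradiated and unirradiated 22RV1 cells in 15 genes by the test of the difference of effects (limma, 12 libraries, adjusted p 0.0215 to 0.048). The log2 difference of effects was above 0 in GDF15 (0.32), FAHD2A (0.31), EVA1B (0.29), COLCA1 (0.28), CDKN1A (0.26), ZFP36 (0.25), DCXR (0.25) and PEX6 (0.22). It was below 0 in KLF10 (-0.35), OGFRL1 (-0.31), ESCO2 (-0.26), EXO1 (-0.26), RRM2 (-0.23), MCM4 (-0.22) and ATAD2 (-0.21). At an unadjusted p under 0.05 there were 1523 such genes. The groups have 3 libraries each, too few for a check of single libraries that stand far from their group.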

How the results depend on the processing

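In CANA + RT against RT the counts were 227 higher and 108 lower with no filter on low values, 110 and 93 without limma's trend, 204 and 170 with all 12 libraries in one fit, 501 and 279 with the curve on length and GC content, and 355 to 762 and 233 to 570 with 1 library left out. With no filter 67.8% of the calls were higher, against 56.2%. With the replicate letter as a block they were 939 and 836; same-letter libraries of CANA + RT and RT deviated together by correlations of 0.103, 0.092 and 0.170, and each library correlated best with its own letter, a hint from the data and not from the design. The 15 genes of the difference of effects became 0 with no filter or without the trend, 77 with array weights, 23 with the curve, 21 with the block, and 0 to 116 with 1 library left out. For CANA against control the lower count was 0 to 1 with 1 library left out. The log2 difference of ELK1 ran from -0.0234 to 0.002 with 1 library left out, above 0 without CANA + RT replicate B (0.002) or RT replicate B (3e-04), and that of SLC3A2 was -0.018 with quantile normalization. Of the other values of named genes under an alternative, 1819 kept direction and side of the threshold, 201 lost the call and 8 gained it. The cause was not tested, other than that leaving out libraries leaves fewer samples. Without raw counts no count model was run, and depth sets no limit here that could be computed.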

Other observations

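The KLF family of zinc finger transcription factors, chosen after its values were seen, was split. Of 15 tested members KLF15 was higher in CANA + RT and KLF12, KLF5, KLF7, KLF11 and KLF10 were lower, with a median log2 difference of 0.03. Of 19 tested SNHG genes, the hosts of small nucleolar RNAs, 6 were higher and 0 lower, with a median of 0.13. Of 487 tested genes whose symbol starts with ZNF, most of them zinc finger repressors, 3 were higher and 11 lower, with a median of -0.02. Over all tested genes 4.60% were higher and 3.59% lower, so ZNF genes were called less often in both directions. Called genes had more normalized reads than genes not called, and the reads of ZNF genes were not compared with those of other genes. The letters CCGGAAG, an ETS core, stood on either strand in 26.2% of the promoters of genes higher in CANA + RT and in 14.3% of those lower, against 18.3% of the promoters of tested genes, and in 20 of 61 promoters (32.8%) of cytosolic ribosomal proteins. These shares are descriptions without a test.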
